A study of Mus musculus with 21 samples.

Results

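Epithelial cells are held together by junction proteins and carry their own splicing factors and filaments, and 10 mouse genes of this kind were followed across 6 cell lines. The genes were Cdh1, Epcam, Cldn4, Cldn6, Cldn7, Spint1, Spint2, Esrp1, Esrp2 and Krt18. Every probe annotated to them was taken from the scanner table of an Illumina MouseWG-6 V2 bead array, which gave 14 probes of 45281. Of the 10 genes, 9 were among the 10449 genes that could be tested, and Epcam was not.

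The study concerned the direct conversion of fibroblasts into expandable neural stem cell lines. MEF were mouse embryonic fibroblasts with a reporter of the pluripotency gene Pou5f1, named Oct4-GiP in one label and Oct4-GFP in another (4 arrays). ES were mouse embryonic stem cells (3 arrays), although the source field of these arrays repeats that of the fibroblasts. NS were neural stem cells from primary mouse forebrain (3 arrays). The induced neural stem cell lines made from the Oct4-GiP fibroblasts were iNS2 with 3 arrays, and iNS3 and iNS5 with 4 arrays each, every line being 1 clone. The labels give no age, strain or sex that separates the lines. Per the series text a line's arrays are technical replicates, so p-values between lines measure only technical spread, and the clones as a group are the only separately derived lines.

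Cdh1 encodes E-cadherin, the adhesion molecule of adherens junctions, which links neighbouring cells and holds embryonic stem cells together in compact colonies. Fibroblasts lack such sheets, and neural stem cells lose E-cadherin for N-cadherin as the neural plate forms. Claudins seal tight junctions, Spint1 and Spint2 are membrane inhibitors of trypsin-like serine proteases, and Esrp1 and Esrp2 direct epithelial exon choice in transcripts such as that of Fgfr2. Snai and Zeb proteins are repressors that bind the E-box CACCTG and are known to silence Cdh1 and several claudins.

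The promoters of the 4 genes with the greatest ES to MEF difference among those with a promoter entry are shown, because they carry, or lack, the E-box those repressors read. Each sequence runs 5′ to 3′ from 250 bases before to 50 bases after the start of transcription and comes from RefSeq on GRCm38.p6. Capitals mark the E-box (CACCTG, or CAGGTG on the other strand) and the GC box (CCGCCC, or GGGCGG on the other strand), and no matches overlapped. They lie at chr2:119237110-119237409 (plus strand, Spint1), chr5:134946885-134947184 (minus strand, Cldn4), chr15:102027966-102028265 (plus strand, Krt18) and chr17:23679115-23679414 (plus strand, Cldn6).
Spint1: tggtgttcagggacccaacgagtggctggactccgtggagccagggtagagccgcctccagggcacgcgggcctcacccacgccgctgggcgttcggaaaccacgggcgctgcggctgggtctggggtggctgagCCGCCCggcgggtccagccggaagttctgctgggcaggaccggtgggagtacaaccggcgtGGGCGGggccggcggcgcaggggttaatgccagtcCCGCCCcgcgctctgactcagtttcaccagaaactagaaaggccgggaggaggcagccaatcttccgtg
Cldn4: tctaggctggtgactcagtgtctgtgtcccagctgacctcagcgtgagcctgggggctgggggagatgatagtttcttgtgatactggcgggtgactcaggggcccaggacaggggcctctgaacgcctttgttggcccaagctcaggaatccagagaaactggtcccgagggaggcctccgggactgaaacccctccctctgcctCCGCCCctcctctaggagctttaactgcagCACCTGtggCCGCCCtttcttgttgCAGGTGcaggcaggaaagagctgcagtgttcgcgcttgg
Krt18: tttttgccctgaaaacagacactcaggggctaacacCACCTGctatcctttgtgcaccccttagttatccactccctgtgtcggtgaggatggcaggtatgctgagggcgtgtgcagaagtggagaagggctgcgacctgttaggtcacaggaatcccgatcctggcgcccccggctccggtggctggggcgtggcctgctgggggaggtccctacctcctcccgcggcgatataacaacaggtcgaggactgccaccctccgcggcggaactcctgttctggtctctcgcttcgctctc
Cldn6: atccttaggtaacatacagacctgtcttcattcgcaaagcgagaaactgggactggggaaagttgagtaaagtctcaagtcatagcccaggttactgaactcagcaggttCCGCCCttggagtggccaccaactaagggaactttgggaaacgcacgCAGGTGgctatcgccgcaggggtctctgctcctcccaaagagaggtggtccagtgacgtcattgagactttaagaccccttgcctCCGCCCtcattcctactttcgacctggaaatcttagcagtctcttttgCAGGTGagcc
The Cldn4 promoter held 1 E-box at position -14 and another at position 12, counted from 1 at the first transcribed base. The Cldn6 promoter held E-boxes at -93 and 41, and that of Krt18 held 1 at -214. The Spint1 promoter held none and had 3 GC boxes, at -115, -54 and -19. Across the 8 promoter entries of 7 of the 10 genes, 6 held an E-box and 6 a GC box, against 20.2% and 35.7% of all 32851 mouse promoters in that table. Cdh1, Esrp1 and Esrp2 had no entry. A match describes letters in this window and shows no binding.

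The arrays had median scanner signals between 127 and 168.5, and between 14407 and 16021 probes per array were well above background (detection p under 0.01). Member probes were read from 24 to 68 beads each. The ES arrays held all 8 pluripotency markers on every array, among them Nanog with signals of 10771.0 to 12792.1. MEF held 9 of 10 fibroblast markers on every array, and NS and each clone held all 9 neural stem cell markers. The 21 arrays lay on 4 slides, and ES shared a slide with 3 iNS5 arrays only, so slide and line cannot be fully told apart for ES against MEF, NS, iNS2 or iNS3. The signal of a whole line was measured, so fewer cells with a transcript and less transcript per cell cannot be told apart.

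The ES line carried these genes, and the fibroblasts, the forebrain neural stem cells and the 3 induced clones were at or near background for nearly all of them. Relative to MEF, Cldn4, Spint1 and Cdh1 were higher in ES by at least 55.9-fold, by 61.1-fold and by at least 45-fold. Esrp1, Cldn6 and Krt18 were higher by at least 10.4-fold, 9.51-fold and 3.49-fold, and Esrp2 and Spint2 by at least 2.44-fold and 1.15-fold. Cldn7 was not called, and Epcam was above background in no line.

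In each of the 5 comparisons of ES with another line, 8 of the 9 tested members passed treat, limma's test against a 2-fold change, at an adjusted p under 0.05. Over all 10449 genes, the share called higher in ES was 22.0% against MEF, 15.2% against NS, 15.3% against iNS2, 15.9% against iNS3 and 16.3% against iNS5. The median ES minus MEF difference was 4.19 on the log2 scale over the 9 members and 0.06 over all genes. For 8 of the 9 genes, ES was the only line above background on every array, so those genes entered the test through ES alone. Their count and the median over the members therefore support nothing by themselves. Of all tested genes, 660 (6.32%) had that pattern. The 5 comparisons share the ES arrays, and the values against each line are therefore given side by side.

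**Figure D1:**
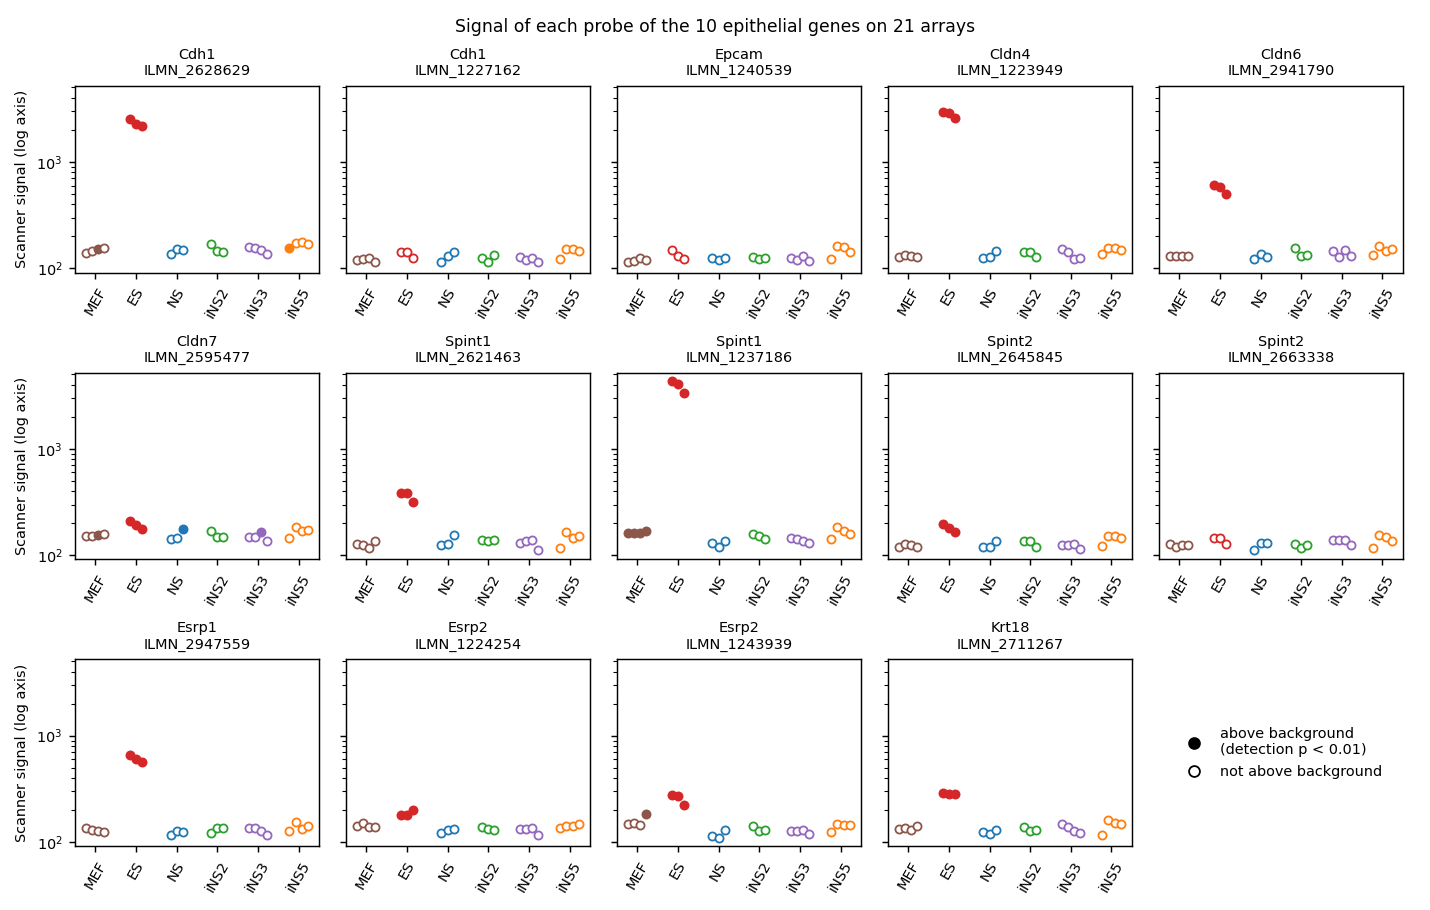
Scanner signal (linear intensity with background included, log axis) of the 14 probes on each of the 21 arrays, by line; filled points are arrays with a detection p under 0.01. The 3 ES arrays stand above the other lines for Cdh1, Cldn4, Cldn6, Esrp1, Krt18 and both Spint1 probes, while the Epcam probe and the weaker Cdh1 and Spint2 probes have no filled point.

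The adhesion receptors behaved unlike each other on this array. The brighter Cdh1 probe (ILMN_2628629) gave signals of 2531.4, 2291.0 and 2178.3 on the 3 ES arrays, and a lowest, median and highest signal of 135.8, 153.6 and 175.7 on the 18 others. All ES arrays lay far above all others, where only MEF replicate 3 and iNS5 replicate 1 were above background. On the normalised scale ES stood at 11.09 ± 0.015 (SD, n = 3) and the other line means between 5.03 and 5.31. The ES minus MEF difference was 5.79 ± 0.17 (log2, SE; adjusted p = 6.3e-16), and the differences from NS, iNS2, iNS3 and iNS5 were 6.03, 6.06, 5.91 and 5.94. A second Cdh1 probe (ILMN_1227162), annotated to another transcript record, was above background on no array, with ES signals of 141.2, 141.9 and 124.2. The 2 probes therefore disagree in ES, and the result on Cdh1 rests on the brighter one.

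Epcam, an adhesion molecule of epithelia that embryonic stem cells are known to carry, had 1 probe (ILMN_1240539). Its ES signals were 147.5, 129.8 and 123.7, and the 18 other arrays ran from 114.9 through a median of 124.45 to 162.6. No array was above background, and the ES arrays lay within the range of the rest. Tested without the detection filter, ES minus MEF was 0.06 ± 0.088 (log2, SE; adjusted p = 1). This probe gives a bound only and does not show that Epcam transcript was missing.

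Of the 3 claudins, Cldn4 and Cldn6 were called higher in ES than in every other line and Cldn7 was not. Cldn4, a tight junction claudin of simple epithelia, had signals of 2959.2, 2893.6 and 2608.5 in ES and of 122.3, 134.75 and 156.9 (lowest, median, highest) elsewhere. Every ES array lay above every other array, and no array outside ES was above background. The ES minus MEF difference was 6.77 ± 0.14 (log2, SE; adjusted p = 1.4e-18), and ES was at least 61.8-fold above NS and at least 62.4-fold, 61.1-fold and 65.8-fold above iNS2, iNS3 and iNS5. Cldn6, a claudin of embryonic epithelia, had ES signals of 607.2, 580.2 and 501.6 against 123.7, 132.75 and 161.1 elsewhere, again with no overlap and with no array outside ES above background. It was higher in ES than in MEF by 4.19 ± 0.11 (log2, SE; adjusted p = 5.3e-16), and by 4.04 to 4.27 than in the 4 other lines.

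Cldn7, a claudin found along the lateral membrane of many epithelia, was weak everywhere. Its ES signals were 210.5, 191.3 and 178.4, and the 4 MEF arrays gave 151.9, 152.2, 154.0 and 157.0. The ES and MEF arrays did not overlap, and yet the ES minus MEF difference of 0.55 ± 0.15 (log2, SE) did not pass a test against 2-fold (adjusted p = 1). The ES differences from NS, iNS2, iNS3 and iNS5 were 0.69, 0.92, 0.92 and 0.99, and none of them passed. One array each of MEF, NS and iNS3 was above background. Against no change at all, limma's eBayes called Cldn7 in all 5 comparisons, with adjusted p between 3.5e-06 and 0.0018.

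**Figure D2:**
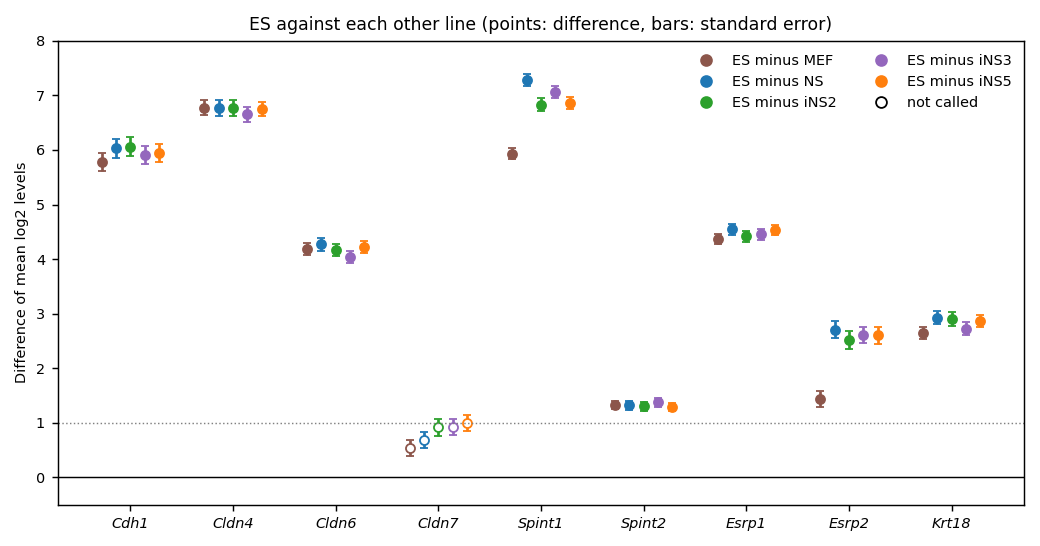
ES minus each other line (log2 difference ± SE) for the 9 tested genes; open points were not called and the dotted line marks a 2-fold change. Cldn4, Spint1 and Cdh1 lie near or above 6 and Cldn7 below 1 in every comparison, and for each gene the differences from NS and the 3 clones lie close together.

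Of the protease inhibitors, Spint1 (also known as HAI-1), which blocks matriptase and the activator of hepatocyte growth factor, had a bright probe and a dim one. The bright probe (ILMN_1237186) gave 4324.2, 4044.5 and 3367.4 in ES and 163.4, 162.4, 162.0 and 169.5 in MEF. All 7 arrays were above background and the lines did not overlap, so the 61.1-fold difference is a measured one (5.93 ± 0.11 log2, SE; adjusted p = 4.2e-19). In NS and the clones that probe was above background on none of the 14 arrays, and ES was higher by at least 84.9-fold than NS and by at least 85.6-fold, 83.9-fold and 90.3-fold than iNS2, iNS3 and iNS5. The dim probe (ILMN_2621463) gave 382.4, 383.9 and 317.6 in ES and was above background nowhere else. It placed ES above MEF by 3.42 ± 0.13 (log2, SE; adjusted p = 6.9e-13), at least 5.14-fold. Both probes thus put ES highest, and their sizes are not comparable because the dim probe was not above background outside ES.

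Spint2 (HAI-2), a related inhibitor that acts on prostasin and matriptase, was weak. Its better probe (ILMN_2645845) gave 195.9, 180.3 and 165.5 in ES, and 115.3, 125.95 and 152.2 (lowest, median, highest) in the other lines. Only the ES arrays were above background, and they lay above all others. ES minus MEF was 1.33 ± 0.077 (log2, SE; adjusted p = 6.1e-04), and the bound of 1.15-fold is small because the signal lies just above the dimmest detected probes. With slide as a block the difference was 1.34 and no longer called (adjusted p = 0.079), as were those against NS, iNS2 and iNS3 (adjusted p of 0.20, 0.49 and 0.20). On slide 3 alone, which held ES and iNS5, it was 1.27 (adjusted p = 0.028). The other Spint2 probe (ILMN_2663338) was above background on no array.

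The splicing regulators were both highest in ES, with a wide margin for 1 of them. Esrp1 gave signals of 660.8, 599.5 and 560.0 in ES and of 116.8, 129.35 and 154.5 (lowest, median, highest) in the other lines, none above background. ES exceeded MEF by 4.37 ± 0.095 (log2, SE; adjusted p = 2.7e-17) and the other 4 lines by 4.42 to 4.55. The ES arrays agreed within an SD of 0.007 on the log2 scale.

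Esrp2, the close paralogue of Esrp1, was dimmer and less clear-cut. Its brighter probe (ILMN_1243939) gave 274.5, 272.7 and 222.6 in ES, and 149.7, 150.4, 145.4 and 185.5 in MEF. The lines did not overlap, although MEF replicate 4 was also above background. ES minus MEF was 1.43 ± 0.15 (log2, SE; adjusted p = 0.011), and against NS, where no array was above background, it was 2.71 ± 0.16 (adjusted p = 9.0e-09, at least 3.07-fold). The Esrp2 call against MEF was lost with slide as a block, where MEF replicate 4 alone sets the MEF level (0.81, adjusted p = 1), with the mean of both probes (1.15, adjusted p = 0.10) and without ES replicate 2 (1.34, adjusted p = 0.065). The calls of Esrp2 against NS and the clones were not lost under those settings. The dimmer Esrp2 probe (ILMN_1224254) gave 181.0, 181.3 and 198.6 in ES, all above background, and none of the other 18 arrays was. It put ES above MEF by 0.87 ± 0.17 (log2, SE; adjusted p = 1) and above NS by 1.44 ± 0.19 (adjusted p = 0.048).

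Krt18, the keratin that pairs with Krt8 in the filaments of simple epithelia, gave 290.5, 285.9 and 284.0 in ES. The other arrays ran from 117.6 through 131.55 to 162.7 and none was above background. ES lay above MEF by 2.64 ± 0.11 (log2, SE; adjusted p = 5.3e-11) and above the other 4 lines by 2.73 to 2.92. Its partner Krt8 was also above background in ES alone, with 554.0, 640.10 and 661.0 as the lowest, median and highest ES signals.

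Among the lines other than ES the question is whether conversion moved the clones away from the fibroblasts they came from for these genes, and whether they differed from forebrain NS. In the main tests, treat for pairs of lines and eBayes for the clones as a group, only the bright Spint1 probe and the brighter Esrp2 probe gave calls. Against no change, eBayes on single clones also called Cldn7 and Krt18, as given below. Taken as a group of 3 lines, the clones were lower than MEF for Spint1 and Esrp2, and no member was called between the clones as a group and NS. In NS and the clones the members were at or near background, so a lack of calls between these lines, here or below, shows no likeness.

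For Spint1, the 4 MEF signals of 162.0 to 169.5 were above background, whereas iNS2 gave 159.4, 151.4 and 141.3, iNS3 146.7, 141.2, 137.5 and 129.9, iNS5 141.8, 183.3, 169.4 and 160.0, and NS 130.3, 119.9 and 136.1, none above background. Some iNS5 signals exceed those of MEF. Scanner signals contain each array's own background, and its part in this was not tested. After background correction and normalisation the MEF arrays lay between 5.84 and 5.95 and the clone arrays between 4.54 and 5.17, without overlap. Clones minus MEF was -0.98 ± 0.19 (log2, SE; adjusted p = 0.018 by limma's eBayes), at least 1.42-fold, and NS minus MEF was -1.35 ± 0.11 (adjusted p = 0.0068 by treat), at least 1.39-fold. The dim Spint1 probe, at background in all these lines, gave 0.04 (adjusted p = 0.87) and 0.25 (adjusted p = 1) for the same comparisons. With the mean of both Spint1 probes neither call held, clones minus MEF being -0.47 (adjusted p = 0.082) and NS minus MEF -0.55 (adjusted p = 1). The clone call for Spint1 was also lost without iNS2 (-1.02, adjusted p = 0.081) and in a test against 2-fold (adjusted p = 1), and the NS call with median scaling (-1.19, adjusted p = 0.21) and without NS replicate 2 (-1.25, adjusted p = 0.063). With slide as a block, and within slide 4, NS minus MEF was -1.30 and not called, but both values set NS against MEF replicate 4 alone, the only MEF array on the slide of NS, and so give no check of the MEF spread.

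For Esrp2, clones minus MEF was -1.15 ± 0.16 (log2, SE; adjusted p = 0.0083), at least 1.16-fold, with 1 of 4 MEF arrays and no clone array above background. That MEF array, replicate 4, lay at 6.25 on the log2 scale and the other 3 MEF arrays at 5.31 to 5.47. It was also the only MEF array on slide 4. NS minus MEF was -1.28 ± 0.15 (adjusted p = 0.12) and not called. With slide as a block, and within slide 4, it was -1.92, but both values rest on that 1 MEF array and bear on no difference between the lines. The clone call for Esrp2 was lost without iNS2 (-1.17, adjusted p = 0.056) and against 2-fold (adjusted p = 0.60), and the dimmer probe gave -0.56 (adjusted p = 0.060).

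**Figure D3:**
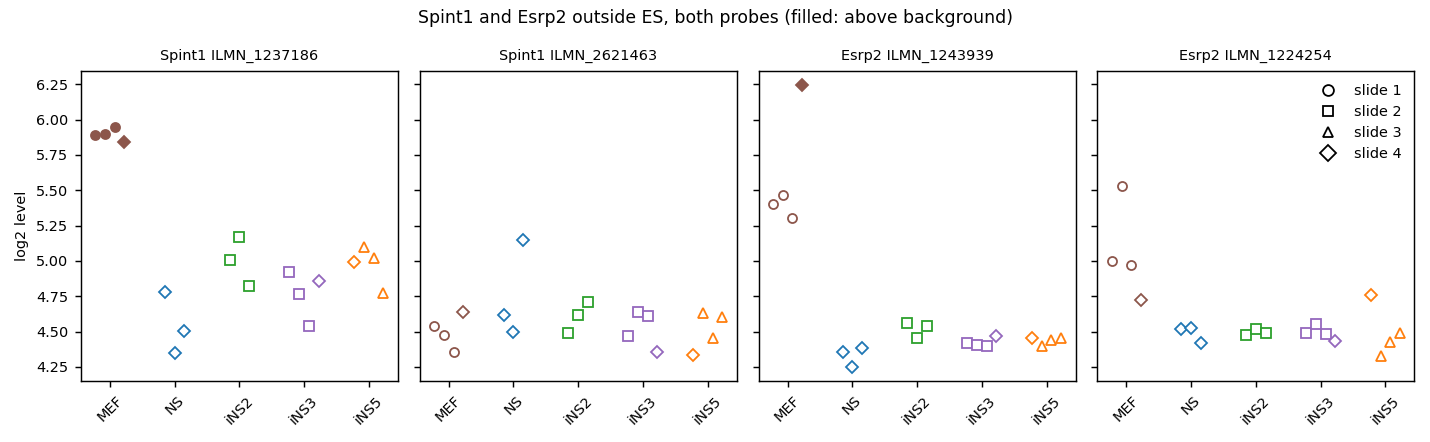
Normalised log2 level of both Spint1 and both Esrp2 probes on the 18 arrays outside ES, by line; the marker shape gives the slide and filled points were above background. The 4 MEF arrays are filled for the bright Spint1 probe alone, and MEF replicate 4, on slide 4, is the only filled array for Esrp2.

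Thus 2 of the 9 tested members were lower in the clones than in MEF, where 23.2% of all genes were lower, and 1 was lower in NS than in MEF, where 17.5% were. Both shares of members are near or below those of all genes. Between the clones and NS 0 members were called by limma's eBayes, 0 had an unadjusted p under 0.05, and 0.0574% of all genes were called. The largest of those differences was 0.37 ± 0.19 (log2, SE) for Spint1, where both sides were at background. Of the single clones against MEF, 0 members passed treat, against 36.0% of all genes called for iNS2, 35.5% for iNS3 and 37.4% for iNS5. Of the single clones against NS, 0 members passed, against 2.32%, 2.24% and 3.23% of all genes. Between pairs of clones, 0 members passed, against 0.947% for iNS2 and iNS3, 2.04% for iNS2 and iNS5 and 3.87% for iNS3 and iNS5. In none of these 9 comparisons did a member have an unadjusted p under 0.05 by treat, which tests against 2-fold. Against no change, eBayes made 12 calls there, of 4 members. It called Esrp2, Cldn7 and Spint1 lower in every clone than in MEF and Krt18 lower in iNS2, where it called 82.5% to 84.8% of all genes. It also called Spint1 higher in iNS2 (0.46, adjusted p = 0.0043) and iNS5 (0.43, adjusted p = 0.0027) than in NS, with both sides at background and with 34.3% and 47.9% of all genes called. With slide as a block, Esrp2 was called lower than MEF in iNS2, iNS3 and iNS5 (-1.67, -1.78 and -1.79), values that rest on MEF replicate 4, and the authors' scaled table called Spint1 lower in each (-1.25, -1.35 and -1.32). Clones against ES called all 9 members lower (22.5% of all genes), including Cldn7 at -0.94 ± 0.16 (log2, SE; adjusted p = 0.014), a call lost without iNS2 (adjusted p = 0.088). In a test against 2-fold, 7 of the 9 were called, without Cldn7 (adjusted p = 1) and Spint2 (-1.32, adjusted p = 0.23). Because 8 of the 9 entered the test through ES alone, neither count of clones against ES supports anything by itself.

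Most lines outside ES cannot be ranked for these genes. For Cdh1, Cldn4, Cldn6, Cldn7, Spint2, Esrp1 and Krt18, the arrays of every pair of neighbours in the order below ES overlapped, and no neighbours below ES differed in the test for any member. For Spint1 and Esrp2 the order began with ES and then MEF, and the MEF arrays did not overlap those of the next line. For Esrp2, neighbours at background did not overlap either, iNS2 with iNS5 and iNS3 with NS. A lack of overlap alone therefore marks no difference there.

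The wider set of epithelial genes was read from lists of junction, filament, protease, regulator and splicing genes. Of all genes, 22.0% were called higher in ES than in MEF and 15.2% higher in ES than in NS. Relative to MEF, 17.5% were lower in NS and 23.2% in the clones, and 0.0574% were called between clones and NS. No share was counted for genes lower in ES, or higher in NS or the clones than in MEF. Counts in those directions, in this and each later list, have no share beside them. Of 6 tested keratin and filament genes, 5 were higher in ES than in MEF and 1 was lower, with a median difference of 3.31 (log2). Those 5, Krt7, Krt8, Krt17, Krt42 and Evpl, were above background on every array in ES alone. They entered the test through ES, so their count and this median support nothing by themselves. Krt8 was higher by at least 10.7-fold (4.33 ± 0.13 log2, SE; adjusted p = 8.2e-15), Krt7, another simple keratin, by at least 3.71-fold, and Krt17 and Krt42 by at least 11.2-fold and 19.3-fold. Krt17 and Krt42 are closely related type I keratins whose probes may share transcripts, so their values are uncertain. All 6 were higher in ES than in NS, and in NS and the clones only Plec, the linker protein plectin, was lower than in MEF.

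Of the serine protease genes tied to the Spint inhibitors, 3 were tested. St14 and Prss8 entered the test through ES alone and Plau through MEF alone. St14, which encodes matriptase, the main target of Spint1, gave 441.3, 477.90 and 492.8 (lowest, median, highest) in ES and was above background in no other line, at least 7.61-fold above MEF (3.93 ± 0.099 log2, SE; adjusted p = 5.1e-16). Prss8, which encodes prostasin, was at least 1.79-fold higher (1.46 ± 0.19, adjusted p = 0.028), a call lost without ES replicate 1 (adjusted p = 0.15), ES replicate 2 (0.051) or MEF replicate 2 (0.085) and with slide as a block (0.89). Plau, the urokinase gene, ran the other way and was at least 4.31-fold higher in MEF than in ES. In the clones and NS St14, Prss8 and Plau were above background on no array.

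Of 16 other junction genes tested, 8 were higher and 3 lower in ES than in MEF, and 5 were not called, with a median of 0.85 (log2). Of those called higher, Cldn3, Dsg2, Lsr, Marveld3, Pkp3 and Tjp3 entered the test through ES alone. That count therefore supports nothing by itself. Cldn1 entered through MEF alone. Llgl2, a polarity protein, was 9.28-fold higher and Pkp3, a desmosome protein, at least 3.86-fold higher, whereas Cldn1 was at least 2.7-fold and Ctnnd1, the p120 catenin that stabilises cadherins, 4.86-fold lower. MEF were therefore not without junction transcripts. Cdh3, which encodes P-cadherin, stood at 9.44 ± 0.095 (log2, SD, n = 4) in MEF and was at least 16.2-fold lower in NS. In NS against MEF, 0 of the 16 were higher and 7 lower, among them Llgl2 (at least 7.07-fold), Pkp2 (10.3-fold) and F11r, the junctional adhesion molecule A (at least 4.66-fold). In the clones against MEF 2 were higher and 7 lower, and between clones and NS 0 of the 16 were called.

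Of 12 other epithelial regulators tested, 7 were higher and 3 lower in ES than in MEF (median 1.48 log2). Of those called higher, Ap1m2, Elf3, Grhl2, Grhl3 and Rab25 entered the test through ES alone, so that count supports nothing by itself. Klf5, a factor of stem cells and epithelia, was 17.7-fold and Grhl3, a grainyhead factor of surface ectoderm, at least 3.16-fold higher. Ddr1, a collagen receptor, and Arhgef5 were 7.88-fold and 7.97-fold lower. Against NS, Klf5 was 29.4-fold and Ap1m2, a sorting adaptor of polarised cells, at least 3.44-fold higher in ES.

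**Figure D4:**
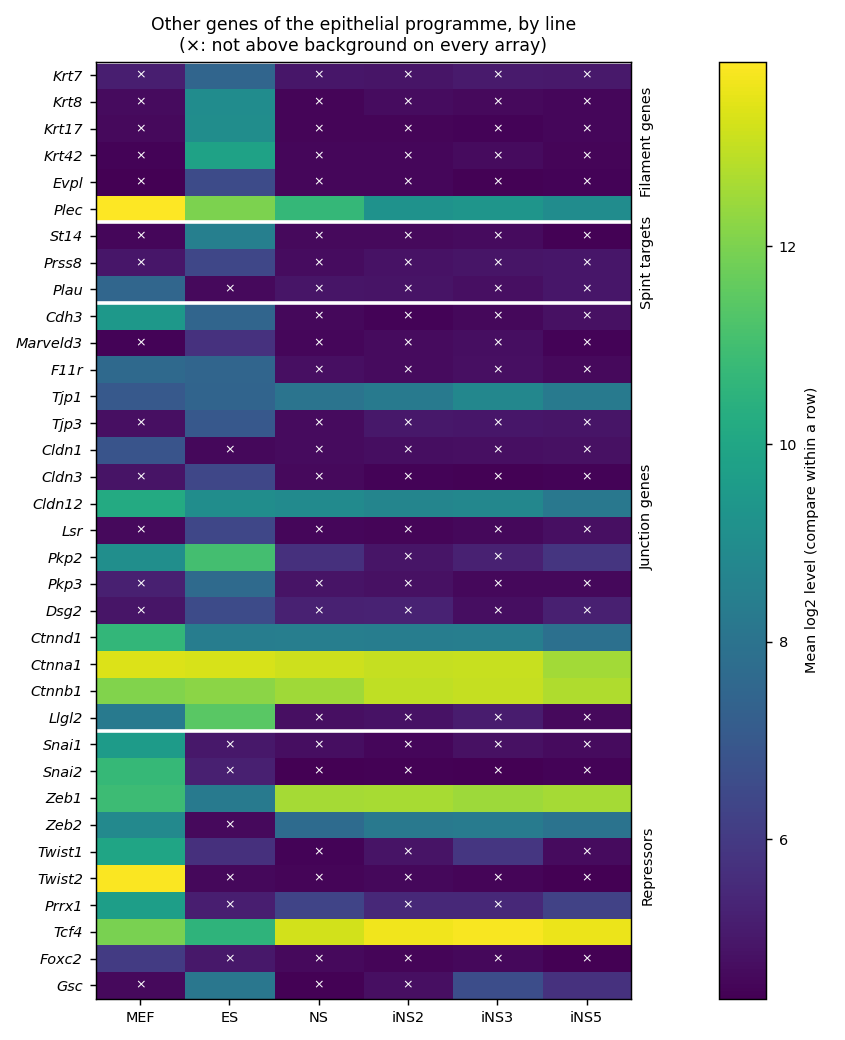
Mean log2 level by line of the tested filament, Spint target, junction and repressor genes; a cross marks a gene that was not above background on every array of that line. Krt8, Krt42, St14 and Pkp3 are uncrossed in ES only, and Snai1, Snai2 and Twist2 in MEF only.

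The other splicing regulators split between directions. Of 14 tested, 3 were higher and 3 lower in ES than in MEF and 8 were not called. Rbm47, an RNA-binding protein of epithelia, was 4.51-fold higher in ES, with ES signals of 969.4 to 1105.8 and MEF signals of 281.0 to 292.2, and was above background on no NS or clone array. It was lower in NS than in MEF by at least 4.78-fold and in the clones by at least 4.87-fold. The muscleblind genes Mbnl1 and Mbnl2 and the neural and muscle factor Celf2 were 16.4-fold, 6.19-fold and 11.1-fold lower in ES than in MEF. Qk, a glial splicing factor, was 24.9-fold higher in NS than in MEF.

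Repressors of epithelial genes were called in both directions between ES and MEF, and Zeb1 and Tcf4 were called higher in NS than in either. Of 10 tested, 8 were lower in ES than in MEF, 1 was higher and 1 was not called, with a median of -4.23 (log2). Twist2, Snai2, Prrx1 and Snai1 were lower by at least 335-fold, 36.4-fold, 19.0-fold and 18.2-fold. In NS and in the clones 6 of the 10 were lower than in MEF and 2 were higher, and between clones and NS 0 were called. Snai1, Snai2, Twist2 and Foxc2 were above background on every array in MEF alone. They entered the test through MEF, so their part in the counts lower than MEF and in the median of -4.23 supports nothing by itself. The count lower in ES also has no share of all genes beside it. Snai1 and Twist2 were above background on no array of ES, NS or a clone. Zeb1 differed from these: its signals were 380.9 to 452.4 in ES, 1755.9 to 2027.2 in MEF, 5430.0 to 7108.5 in NS and 4514.9 to 8663.8 in the clones. Those ranges did not overlap between ES, MEF and the neural lines, and ES was 19.9-fold below NS (-4.31 ± 0.068 log2, SE; adjusted p = 3.4e-19). Zeb2, at background in ES, was at least 4.85-fold higher in NS. Apart from Spint1 in MEF, the members were at or near background both in MEF, where Snai1, Twist2 and Zeb1 were above background, and in the neural lines, where Zeb1 was and Snai1 and Twist2 were not. In ES, Zeb1, Tcf4, Twist1 and Gsc were above background on every array as well. Gsc was the repressor called higher in ES than in MEF, by at least 5.96-fold. Whether any repressor acts on the members was not tested.

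The 4 mesenchymal partners tested were called lower in ES than in MEF, a direction for which no share of all genes was counted. S100a4 was above background on every array in MEF alone. It entered the test through MEF, so its part in that count supports nothing by itself. Acta2, a smooth muscle actin, was lower in ES by 425-fold and Vim, the filament of mesenchymal and neural stem cells, by 12-fold. Against NS the 4 genes split: Fn1 was 7.79-fold higher in ES, Acta2 and Vim were 14.4-fold and 11.6-fold lower, and S100a4 was not called. Cdh2, the N-cadherin gene, was above background on no MEF, ES or iNS3 array and was not among the genes tested. Vim did not differ between NS and MEF by more than 2-fold in the test (-0.05 ± 0.067 log2, SE; adjusted p = 1).

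Markers of other cells that could carry such genes were read on the ES arrays. Of 12 extraembryonic epithelium markers, 4 (Gata6, Dab2, Tfap2c and Hnf4a) were above background on every ES array, with a summed linear level of 5602 to 5803 against 2583 to 2767 in MEF and 356.8 to 412.9 in NS. Gata4, Sox17, Foxa2, Afp, Cdx2, Elf5 and Eomes were above background on no ES array. Tfap2c alone had ES signals of 5309.6 to 6407.1. Of 7 differentiated epithelium markers, 1 was above background on every ES array (Wfdc2, 4707.5 to 5375.0), and Trp63, Krt5, Krt14, Lcn2 and Cftr were on none. Of 10 fibroblast markers, Thy1 alone was, at 295.8 to 320.0 against 23441.4 to 25113.4 in MEF. The part of Tfap2c, Wfdc2 or Thy1 expressing cells in the members' levels was not tested.

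The genes whose levels followed the members most closely over the 21 arrays are listed as a description, because the arrays fall into 3 ES arrays and 18 others and any gene high in ES alone correlates strongly. Cldn4 followed Tfap2c, Rhox13 and Tfcp2l1 (Pearson r of 0.9975, 0.9975 and 0.9974), and Cldn6 followed Dppa3, Tfcp2l1 and Rhox13 (0.9965, 0.996 and 0.9958). Cdh1 was closest to Capsl, Rbmxl2 and Rps6kl1 (0.9963, 0.9963 and 0.9954) and Esrp1 to Tex19.2, Phlda2 and Fam25c (0.9973, 0.9972 and 0.9971). Spint1 was closest to Dmtn, Slco4a1 and Gmfg (0.9949, 0.9932 and 0.9932), Krt18 to Insl3, Wfdc2 and Krtdap (0.9905, 0.9902 and 0.9894), and Spint2 to Ell3, 8030474K03Rik and Mmrn2 (0.9898, 0.9873 and 0.9865). Between 374 and 476 genes had an r over 0.95 with each of these 7. Esrp2 stood apart with 93 such genes, led by Cth, Itgb4 and Acacb (0.9843, 0.9808 and 0.9772). Among the members, Cdh1 and Cldn4 had an r of 0.9954, whereas Cldn7 had no r over 0.8183 with any other member.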

How the data were processed

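The deposited scanner table gives probe intensity on a linear scale with background included, and per the file headers a detection p-value for each array. The authors' scaled intensity table served as an alternative. The submitters' processing notes name GenomeStudio. Per the labels, total RNA was amplified to biotinylated cRNA. Of 45281 probes, 34885 had 1 gene symbol, 18 several and 10378 none.

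Background correction and quantile normalisation of the intensities used neqc (offset 16, controls inferred from detection p-values) in limma 3.58.1 under R 4.3.3, which gives log2 values. Probes with 1 symbol and a detection p under 0.01 on every array of at least 1 line were kept (15972), and the probe with the highest mean stood for its gene, leaving 10449 genes. All pairs of lines were tested in 1 limma fit of the 21 arrays (15 residual degrees of freedom) with treat against 2-fold. The clones as a group were tested on line means with eBayes (2 residual degrees of freedom), two-sided, with the single other line assumed to vary like them. Calls had a Benjamini-Hochberg adjusted p under 0.05 over all genes. "At least" marks a fold in which the dim side was not above background on every array, each such array being set at no less than its dimmest detected probe. Using that floor where only some arrays were above background was chosen after the values were seen. The number of arrays limits the precision.

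The members and gene lists were chosen with earlier results of these data known. From each other list and comparison, at most 4 called genes with the greatest log2 difference were named, plus genes an abundance check turns on. Zeb1 in every line and Vim in NS were named after their values were seen. Each called member's 3 closest genes were named by Pearson correlation. The fit was tested on simulated data. Alternatives covered scaling, the authors' table, filters, probes, tests, slides and left-out arrays or clones. Figures used matplotlib 3.10.9 under Python 3.11.15.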

Additional observations from a re-analysis of the deposited data

Results flagged for a closer look

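Of 42 groups of 4 arrays tested for a stray array (14 probes in MEF, iNS3 and iNS5), 1 was set apart, and chance sets apart about 1 in 20. On the brighter Esrp2 probe, MEF replicate 4 lay at 6.247 on the log2 scale and the other MEF arrays between 5.306 and 5.466, so that its gap to the nearest array was 0.83 of the whole range, just above Dixon's critical value for 4 arrays. Its signal was 185.5 with a detection p of 0.00107. It is the only MEF array on slide 4, and the part of the slide was not tested.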

How the results depend on the processing

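No paired analysis was possible because the labels give no replicate numbers that pair arrays across lines. In the 5 ES comparisons, NS against MEF, and clones against MEF and ES, 776 of 805 member values over all settings kept direction and call, 20 lost a call, 9 gained one and 0 reversed, and 4228 of 4280 values of other named genes kept theirs. With the stricter detection filter only Spint1 was tested, so ES against MEF, NS, iNS2, iNS3 and iNS5, clones against ES and clones against MEF each called 1 member. With eBayes against no change, genes called were 9025 in ES against MEF, 8437 against NS, 8394 against iNS2, 8548 against iNS3, 8582 against iNS5 and 8492 in NS against MEF, where 3 members were called. In the 9 remaining pairs, which that tally leaves out, it made 12 calls of 4 members. With treat, the clones called 1933 genes against MEF (0 members) and 1679 against ES (7 members). In NS against MEF, the mean of probes and median scaling each called 0 members, and in clones against MEF the mean of probes called 1. The authors' table called 14 genes in clones against NS (6 otherwise) and 3 member differences in the 9 pairs, Spint1 for each clone against MEF. Slide as a block made 3 calls there, Esrp2 for each clone against MEF, set by MEF replicate 4 alone. At a detection p under 0.05, 3 member probes were above background on every array in MEF (1 at 0.01), 1 in iNS2 and 1 in iNS5 (0 in both at 0.01). Leaving out arrays gave 0 to 2 members in NS against MEF (0 without NS replicate 2, 2 without MEF replicate 3). Leaving out a clone gave 2719 to 5429 genes and 0 to 2 members in clones against MEF, 2372 to 5148 genes in clones against ES and 0 genes in clones against NS. The lowest counts against MEF and ES came without iNS2. Median scaling moved the median of all genes to 0.13 in ES against MEF, 0.16 in NS against MEF, 0.22 in clones against MEF and -0.12 in ES against iNS5, from 0.05 to 0.07 otherwise, and the causes of these changes were not tested. Probes at background give bounds only, and with technical arrays of 1 culture each, p-values cover no biological spread of ES, NS or MEF.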
